A study of Rattus norvegicus with 26 samples.

Results

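The S100 and annexin genes described here were 10 rows of the joint read count table, taken by gene symbol out of 32883 genes: the S100 genes S100a4, S100a6, S100a8, S100a9, S100a10 and S100a11, and the annexin genes Anxa1, Anxa2, Anxa3 and Anxa5. All 10 passed the filter on low counts, which left 17990 genes. Their read counts were followed in 26 RNA sequencing libraries of spinal cord from adult female wild-type Sprague-Dawley rats of 250 g, labelled as postnatal day 70 in every group. The 4 Intact libraries came from cords labelled as untreated, which the study's methods describe as intact or sham. In all other groups the cord had been compressed at T10 for 1 min by an aneurysm clip closing with 60 g, and a segment of 5 mm around the lesion was taken. The sub-SCI group (3 libraries) was taken 7 days after injury, at the time of transplantation. The +PBS groups received phosphate-buffered saline and the +MSC groups stem cells of the mesenchymal type from human umbilical cord (hUC-MSCs), both given intrathecally 7 days after injury, and cords were taken 1, 2 or 4 weeks after transplantation (wpt): +PBS-1w (3 libraries), +MSC-1w (3), +PBS-2w (2), +MSC-2w (3), +PBS-4w (4) and +MSC-4w (4). The study's methods describe daily cyclosporin A against rejection throughout the experiment. They do not say whether the sub-SCI and Intact rats received it. The groups of 1 to 4 wpt differ from sub-SCI in time since injury as well as in injection. Reads that mapped to the human genome had been removed before counting, so the values are read as those of the host tissue. The segments hold every cell type at the lesion, and fewer cells of a type cannot be told apart from less RNA per cell.

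S100 proteins are small calcium-binding proteins that act inside cells on the cytoskeleton and membranes, and several of them are released and bind receptors on neighbouring cells. Annexins bind phospholipid membranes when calcium rises, take part in membrane repair and secretion, and pair with particular S100 proteins, annexin A2 with S100A10 and annexin A1 with S100A11. In injured nervous tissue these families are known from macrophages, reactive glia, fibroblasts of the scar and, for S100a8 and S100a9, neutrophils.

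Library totals lay between 19496602 and 43468509 counts, so counting error was small for all members outside the Intact group, where the lowest member count was 19 reads of S100a11 in replicate 1. That library held the lowest Intact level of all 10 members, and sub-SCI replicate 3 held the highest sub-SCI level of 9. Summed levels of the fibroblast markers (9 of 9 in the table) moved the same way: 239.9, 704, 1344 and 1208 counts per 1000000 counts of the library (CPM) in Intact replicates 1 to 4 and 7986, 9347 and 19301 CPM in sub-SCI replicates 1 to 3. The Schwann cell markers (6 of 6 in the table) summed to 15.1 to 1145 CPM over the Intact libraries. The Intact cords carried neuron markers (9 of 9, summed 6117 to 7238 CPM) and oligodendrocyte markers (6 of 6, summed 47042 to 54900.1 CPM), as their tissue label says. Cldn5, an endothelial marker, was listed at 0 in all 26 libraries. In +PBS-4w replicate 1 genes under 600 bases stood 0.779 above genes over 4000 bases in their median log2 deviation, against -0.374 to 0.223 in the other libraries, and 5 of the 10 members (S100a6, S100a8, S100a9, S100a10 and S100a11) are under 600 bases.

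The starts of 5 members are printed because they differ in their core promoter letters. These are the 100 bases before each transcription start from RefSeq on build GRCr8, which is not the build of the counts. Capitals mark the TATA letters (TATAAA) and the GC box letters (GGGCGG), both searched on either strand; in S100a11 the GC boxes overlap by 1 base.
S100a4, chr2:178388429-178388528, forward strand: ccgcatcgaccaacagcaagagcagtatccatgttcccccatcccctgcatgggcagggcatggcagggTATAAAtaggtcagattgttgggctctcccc
S100a9, chr2:178490623-178490722, reverse strand: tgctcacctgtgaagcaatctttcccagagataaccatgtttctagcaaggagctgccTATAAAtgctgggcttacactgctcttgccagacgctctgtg
S100a6, chr2:178398437-178398536, forward strand: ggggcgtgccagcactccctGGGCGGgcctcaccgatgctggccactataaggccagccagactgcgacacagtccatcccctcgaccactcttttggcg
S100a11, chr2:181875032-181875131, forward strand: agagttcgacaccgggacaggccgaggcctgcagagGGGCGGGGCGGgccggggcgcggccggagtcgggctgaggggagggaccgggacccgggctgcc
Anxa2, chr8:78986152-78986251, forward strand: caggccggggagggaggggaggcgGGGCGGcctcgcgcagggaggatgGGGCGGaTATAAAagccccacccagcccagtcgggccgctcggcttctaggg
Promoter windows of 300 bases were given for 8 of the 10 members, not for S100a8 and S100a10. TATAAA stood in 4 of them (S100a4, S100a9, Anxa1 and Anxa2) against 14.2% of 33469 RefSeq promoters of the same length, and GGGCGG in 5 (S100a6, S100a11, Anxa2, Anxa3 and Anxa5) against 33.1%. Letters of other sites were searched too, with N for any base. The AP-1 letters (TGANTCA) stood in 1 member (Anxa2) against 7.33% of promoters. The C/EBP letters (TTGCNNAA) stood in 1 (Anxa1) against 10.6%, and the STAT letters (TTCNNNGAA) in 0 against 8.87%. In RefSeq gene order S100a4, S100a6, S100a8 and S100a9 belong to the run of S100 genes on chromosome 2, while S100a11 and S100a10 are neighbours of each other elsewhere on that chromosome, and no annotated gene overlapped a member.

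Lesion tissue at 7 days held far more transcript of 8 of the 10 genes than intact cord. A gene is called here where its absolute log2 fold change exceeds 1 with an adjusted p below 0.01 in edgeR's quasi-likelihood test. In sub-SCI against Intact these 8 rose and 0 fell, where 16.6% of all genes tested were called higher and 17.5% lower. The members' median log2 fold change was 2.54, against -0.018 over all genes tested. Compared per transcript length (FPKM, computed here as CPM per 1000 bases of gene model), the order of mean levels changed between the groups. In Intact cords S100a10 (109 FPKM), Anxa5 (81.1) and Anxa2 (52.98) were highest, and S100a11 (18.5) and Anxa1 (11.7) were lowest. In sub-SCI cords S100a11 came first at 968 FPKM, followed by S100a10 (532), S100a6 (488) and Anxa2 (384). S100a8 (46.5 FPKM) and S100a9 (44.1 FPKM) came last there.

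**Figure D1:**
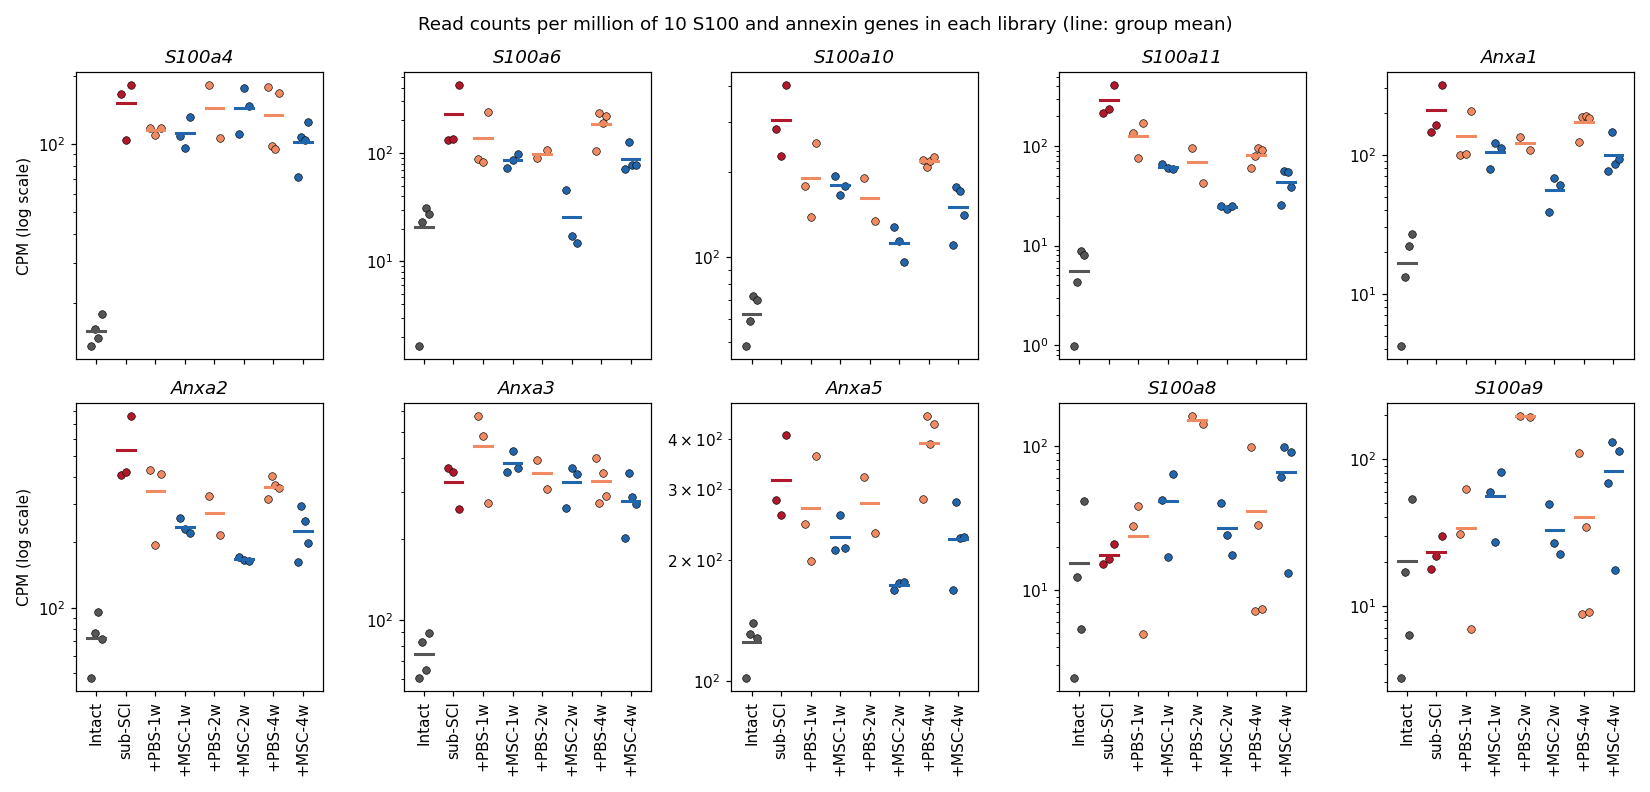
Level of each member in each library as CPM on a log axis, by group, with a line at the group mean; 7 genes (S100a4, S100a10, S100a11, Anxa1, Anxa2, Anxa3 and Anxa5) have all 22 injured libraries above all 4 Intact libraries. S100a8 and S100a9 overlap with Intact in most groups and are highest in +PBS-2w.

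For 7 members all 22 injured libraries lay above every Intact library, which was so for 11.8% of all genes. The exceptions were S100a6, with 2 injured libraries inside the Intact range, S100a8 with 14 and S100a9 with 13.

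S100a11, whose protein is the partner of annexin A1, had the largest rise of the members in sub-SCI. Its levels were 0.975, 4.32, 8.73 and 7.94 CPM in the Intact replicates and 214, 237 and 412 CPM in the sub-SCI replicates. The lowest sub-SCI library thus stood far above the highest Intact library. The log2 fold change was 5.67 (adjusted p = 3.11e-09, SE 0.48). It was 5.39 (SE 0.41) without Intact replicate 1 and 5.31 (SE 0.48) without sub-SCI replicate 3. The later groups were lower. Levels were 136, 75.4 and 171 CPM in +PBS-1w, 96.6 and 42.8 CPM in +PBS-2w and 59.7, 79.1, 95.1 and 90.3 CPM in +PBS-4w. The +PBS-1w replicates already lay below all 3 sub-SCI replicates. With hUC-MSCs the levels were 66.5, 60.5 and 58.7 CPM at 1 wpt, 25.02, 23.2 and 24.9 CPM at 2 wpt and 25.4, 55.9, 55.5 and 38.8 CPM at 4 wpt. At each week all +MSC replicates were below all +PBS replicates, the closest being 59.7 CPM in +PBS-4w against 55.9 CPM in +MSC-4w, and S100a11 was the single member for which this held in all 3 weeks (0.661% of all genes). Its gene model is the shortest of the members, at 297 bases. The library at 59.7 CPM was +PBS-4w replicate 1, in which short genes stood high. Genes of up to 600 bases had a median log2 deviation of 0.438 from their group mean there. How far this bears on the narrow gap at 4 wpt was not tested.

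Anxa1 encodes annexin A1, a protein known for limiting leukocyte entry through formyl peptide receptors. Its levels were 4.21, 13.1, 22.1 and 26.96 CPM in Intact, 145, 163 and 317 CPM in sub-SCI and 124, 186, 189 and 183 CPM in +PBS-4w. All injured replicates were higher than the Intact ones, and replicate 1 was the low one in both Intact and +PBS-4w. The log2 fold change against Intact was 3.62 (adjusted p = 2.51e-07, SE 0.42) in sub-SCI and 3.28 (adjusted p = 1.10e-06, SE 0.41) in +PBS-4w. In the +MSC groups the replicates were at 78.6, 121 and 112 CPM at 1 wpt, 38.7, 68.3 and 60.5 CPM at 2 wpt and 76.6, 145, 85.1 and 93.5 CPM at 4 wpt. The +MSC-2w replicates stood between the Intact range and all other injured groups, with a log2 fold change against Intact of 1.69 (adjusted p = 0.00463, SE 0.40).

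S100a10 and Anxa2 encode the subunits of a complex that holds plasminogen and its activators at the cell surface. Both rose in sub-SCI. S100a10 went from 48.3, 59.1, 72.9 and 70.00 CPM in Intact to 282, 227 and 405 CPM in sub-SCI, a log2 fold change of 2.25 (adjusted p = 1.11e-08, SE 0.21). Anxa2 went from 47.6, 76.7, 95.6 and 71.6 CPM to 408, 420.2 and 758 CPM, a log2 fold change of 2.82 (adjusted p = 1.46e-08, SE 0.27). Neither gene's ranges overlapped between these groups. At 4 wpt S100a10 stood at 220.0, 207, 218 and 225 CPM in +PBS and 110.3, 176, 171 and 140.5 CPM in +MSC. Anxa2 stood at 316, 402, 367 and 355 CPM in +PBS-4w and 162, 294, 249 and 199 CPM in +MSC-4w. All +MSC-4w replicates were below all +PBS-4w replicates in both genes. Per length, the Anxa2 to S100a10 ratio of FPKM was 0.411 to 0.546 in Intact, 0.603 to 0.7795 in sub-SCI and 0.411 to 1.01 over all libraries, so S100a10 transcript was the more abundant in all libraries but +PBS-1w replicate 1. Of all pairs of members, theirs was the second closest in profile over the 8 group means, with a root mean square difference of 0.200 in log2 CPM; S100a8 and S100a9 were the closest, at 0.0784.

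S100a4, a binding partner of non-muscle myosin that is used as a marker of fibroblasts and is also made by macrophages, was the steadiest of the raised genes over time. It was at 12.9, 15.3, 13.9 and 17.9 CPM in Intact and at 167, 104 and 182 CPM in sub-SCI, a log2 fold change of 3.30 (adjusted p = 1.57e-09, SE 0.27). Injured libraries of the other groups lay between 71.8 and 182 CPM, with +PBS and +MSC ranges overlapping at each week, and all 6 of those groups were called higher than Intact, at log2 fold changes of 2.68 to 3.21. Anxa3, an annexin of neutrophils and microglia, was similar in this. It was at 60.9, 83.05, 65.04 and 89.1 CPM in Intact, 367, 355 and 259 CPM in sub-SCI and 573, 486 and 273 CPM in +PBS-1w. Unlike most members, its mean level was higher in +PBS-1w than in sub-SCI, although the ranges overlapped. Its log2 fold change was 2.09 (adjusted p = 6.90e-08, SE 0.22) in sub-SCI, and over the other injured groups it ran from 1.80 to 2.48, each called.

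Anxa5, whose protein binds phosphatidylserine on dying cells, had the smallest rise of the 8 genes in sub-SCI. Its levels were 102, 131, 139 and 128 CPM in Intact and 282, 259 and 409 CPM in sub-SCI, a log2 fold change of 1.30 (adjusted p = 6.81e-06, SE 0.20). At 4 wpt they were 284, 454, 387 and 436 CPM with PBS and 169, 279, 227 and 227 CPM with hUC-MSCs. No +MSC-4w replicate reached the lowest +PBS-4w replicate. Anxa5 was called higher than Intact in all 3 +PBS groups (log2 fold change 1.01, 1.06 and 1.56 at 1, 2 and 4 wpt). In +MSC it was 0.76 (SE 0.20), 0.41 (SE 0.20) and 0.75 (SE 0.18) and passed the fold threshold in none, with adjusted p = 0.00554, 0.149 and 0.0038 in edgeR.

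S100a6, known as calcyclin and abundant in fibroblasts and reactive glia, had the widest spread within groups among the 8. It was at 1.64, 23.3, 31.1 and 27.3 CPM in Intact and 131, 134 and 426 CPM in sub-SCI. Replicate 1 was the low library of Intact and replicate 3 the high library of sub-SCI. The log2 fold change was 3.44 (adjusted p = 5.91e-05, SE 0.62), and 3.11 (SE 0.50) and 2.63 (SE 0.60) without either of those libraries in turn. With PBS the levels were 87.3, 83.02 and 240.3 CPM at 1 wpt, 89.8 and 107 CPM at 2 wpt and 106, 233, 191 and 219.9 CPM at 4 wpt. With hUC-MSCs they were 72.99, 85.7 and 97.4 CPM, 45.4, 17.1 and 14.6 CPM and 70.9, 126, 77.5 and 77.2 CPM at the same weeks. Replicates 2 and 3 of +MSC-2w lay inside the Intact range, which no other injured library did. Against Intact, S100a6 was called higher in sub-SCI, +PBS-1w and +PBS-4w, and not in +PBS-2w (log2 fold change 2.16 (adjusted p = 0.0125, SE 0.65)), +MSC-1w (1.93 (adjusted p = 0.017, SE 0.60)), +MSC-2w (0.26 (adjusted p = 0.806, SE 0.60)) or +MSC-4w (1.98 (adjusted p = 0.0117, SE 0.57)). These calls depended on the fit. DESeq2 on all libraries also called S100a6 in +PBS-2w, +MSC-1w and +MSC-4w (adjusted p = 0.00437, 0.00446 and 0.00154). Fitted by edgeR on the 2 groups alone, S100a6 was not called in +PBS-1w (adjusted p = 0.0186). The pooled within-group standard deviation of its log2 CPM was 0.998, against a median of 0.3198 over all genes tested.

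The summed fibroblast markers followed a similar course across libraries. All 9 markers rose in sub-SCI, and the sums ran over 239.9 to 1344 CPM in Intact, 7986 to 19301 in sub-SCI, 4504 to 10048 in +PBS-1w, 2088 to 4011 in +MSC-1w, 1955 to 2509 in +PBS-2w, 645 to 970.2 in +MSC-2w, 1272 to 5628 in +PBS-4w and 1255 to 3198 in +MSC-4w. None of the 9 was at 0 in any library. The microglia and macrophage markers (12 of 12 in the table, 9 called higher in sub-SCI, none at 0) summed to 267 to 446 CPM in Intact and 8467 to 9927 CPM in sub-SCI. The T cell markers (5 of 6 in the table) were all called higher in sub-SCI, with sums of 19.6 to 28.5 CPM in Intact and 237 to 325 CPM in sub-SCI. Markers of neurons and oligodendrocytes moved the other way. All 9 neuron markers were called lower in sub-SCI (median log2 fold change -3.19), where they summed to 283 to 1208 CPM, and 4 of 6 oligodendrocyte markers were called lower (median -1.14), with sums of 16168 to 33149 CPM. Astrocyte markers (7 of 7 in the table) were mixed in sub-SCI, with Vim called higher and Slc1a2, Aqp4 and Aldh1l1 called lower. Their sums were 6665 to 8188 CPM in Intact and 8786 to 12574 CPM in sub-SCI. The part of these cell types in the members' levels was not tested.

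**Figure D2:**
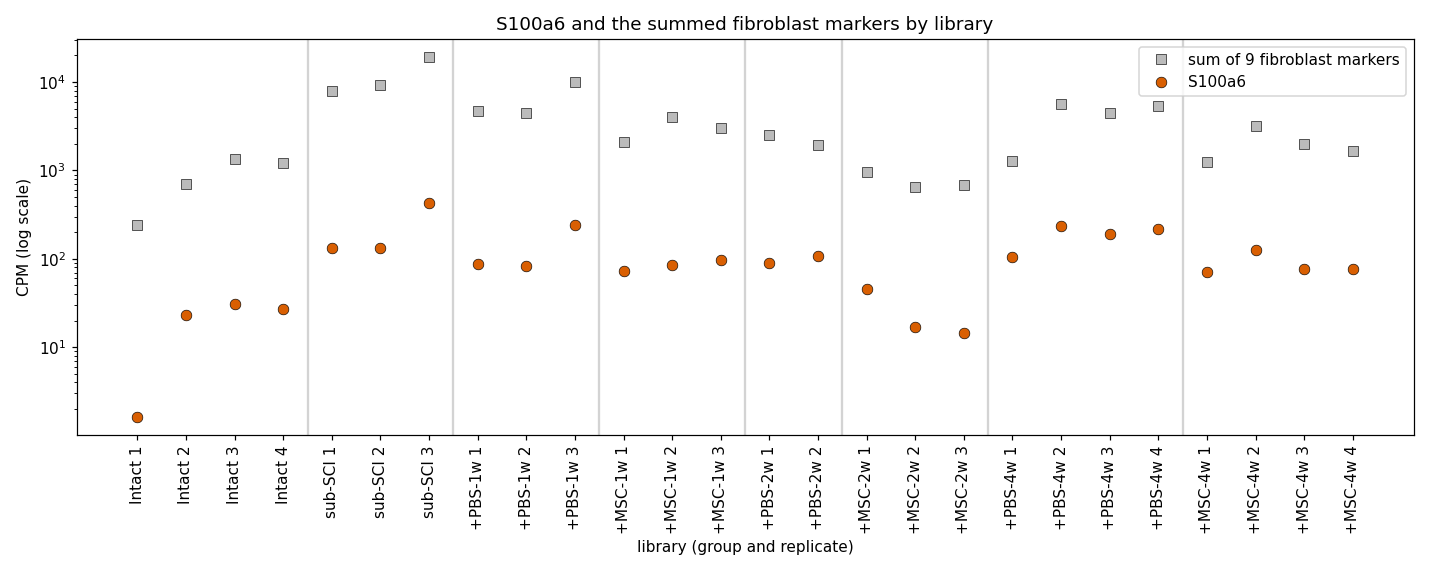
S100a6 and the sum of 9 fibroblast markers in each of the 26 libraries, as CPM on a log axis, with grey lines between groups. Both are lowest in Intact replicate 1, highest in sub-SCI replicate 3, and among injured libraries lowest in +MSC-2w.

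S100a8 and S100a9, the subunits of calprotectin, which neutrophils and monocytes store and release as a ligand of Tlr4, did not share the rise at 7 days. S100a8 was at 2.46, 12.4, 5.38 and 41.5 CPM in Intact and 15.2, 16.5 and 20.9 CPM in sub-SCI. The sub-SCI replicates lay within the Intact range, and the log2 fold change was 0.16 (adjusted p = 0.892, SE 0.89) for S100a8 and 0.19 (adjusted p = 0.868, SE 0.88) for S100a9. The highest libraries were those of +PBS-2w, with S100a8 at 162 and 143 CPM and S100a9 at 195 and 195 CPM, above all other libraries of the series. Against Intact the log2 fold changes there were 3.23 (adjusted p = 0.013, SE 0.97) and 3.21 (adjusted p = 0.0128, SE 0.97), just short of a call in edgeR, while DESeq2 on all libraries called both. In +MSC-2w S100a8 was at 40.3, 24.1 and 17.4 CPM. At 4 wpt the replicates scattered widely, S100a8 being at 99.04, 7.21, 28.6 and 7.36 CPM in +PBS and 61.4, 98.4, 13.2 and 91.2 CPM in +MSC. These 2 genes were called higher or lower in none of the 7 comparisons with Intact, and their pooled within-group standard deviations of log2 CPM were 1.34 and 1.32.

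The pair kept a nearly fixed proportion in every library. Per length, the S100a9 to S100a8 ratio of FPKM ran from 0.788 to 1.16 over 26 libraries, a 1.47-fold range, while S100a8 itself spanned a 65.7-fold range of CPM. The neutrophil markers (10 of 10 in the table, 9 tested) summed to 8.57, 31.4, 16.3 and 98.5 CPM in Intact, where their order over the replicates was that of S100a8. In sub-SCI they summed to 187 to 240.0 CPM, in +PBS-2w to 177 to 183 CPM and in +MSC-2w to 83.3 to 87.4 CPM. Csf3r and Mmp8 were called higher in sub-SCI and the other 7 tested were not. Among those, Camp had a log2 fold change of 0.13 (adjusted p = 0.9, SE 0.79), Ngp -0.15 (adjusted p = 0.888, SE 0.84) and Mpo -0.94 (adjusted p = 0.446, SE 1.03). Ltf was listed at 0 in 15 libraries, Cxcr2 in 2 and Retnlg in 1. The part of neutrophils, or of blood left in the tissue, in the S100a8 and S100a9 levels was not tested.

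**Figure D3:**
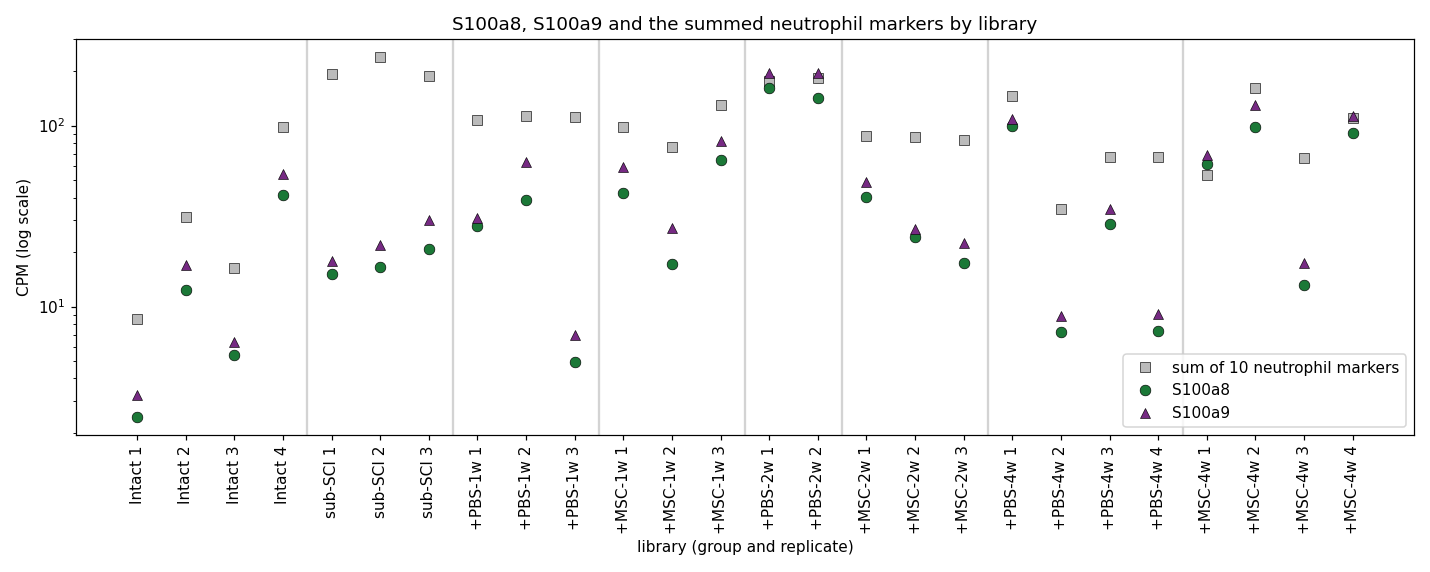
S100a8, S100a9 and the sum of 10 neutrophil markers in each of the 26 libraries, as CPM on a log axis, with grey lines between groups. S100a8 and S100a9 move side by side, both highest in +PBS-2w, while in sub-SCI the marker sum (187 to 240.0 CPM) is high and S100a8 (15.2 to 20.9 CPM) is not. Most of that sum in sub-SCI is Mmp8 (98.1 to 136 CPM) and Csf3r (61.7 to 83.9 CPM).

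In the later groups more members were called higher than Intact with PBS than with hUC-MSCs, and the difference between these counts was not tested. All comparisons with Intact share the same 4 control libraries, so they are not independent of each other. With PBS, 8 members were called higher at 1 wpt (13.5% of all genes), 7 at 2 wpt (8.84%) and 8 at 4 wpt (13.3%). With hUC-MSCs, 6 were called higher at 1 wpt (7.87% of all genes), 5 at 2 wpt (5.6%) and 6 at 4 wpt (7.25%). No member was called lower in any of these groups, where 12.5%, 5.66% and 10.7% of all genes were called lower with PBS and 2.63%, 0.461% and 1.53% with hUC-MSCs. The shares over all genes were thus also smaller with hUC-MSCs. Fitted log2 fold changes were above 0 for all 10 members in each of these groups. At an unadjusted p under 0.05 the counts did not follow that order, with 8, 10 and 8 members higher with PBS at 1, 2 and 4 wpt (29.1%, 24% and 31.4% of all genes) and 8, 7 and 10 with hUC-MSCs (22.6%, 18% and 22.4%). The members' median log2 fold changes against Intact were 2.31, 2.47 and 2.15 in +PBS and 1.76, 0.96 and 1.97 in +MSC at 1, 2 and 4 wpt, where those over all genes tested lay between -0.035 and 0.051. S100a10 was not called in +MSC-2w, with a log2 fold change of 0.79 (adjusted p = 0.00968, SE 0.21).

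**Figure D4:**
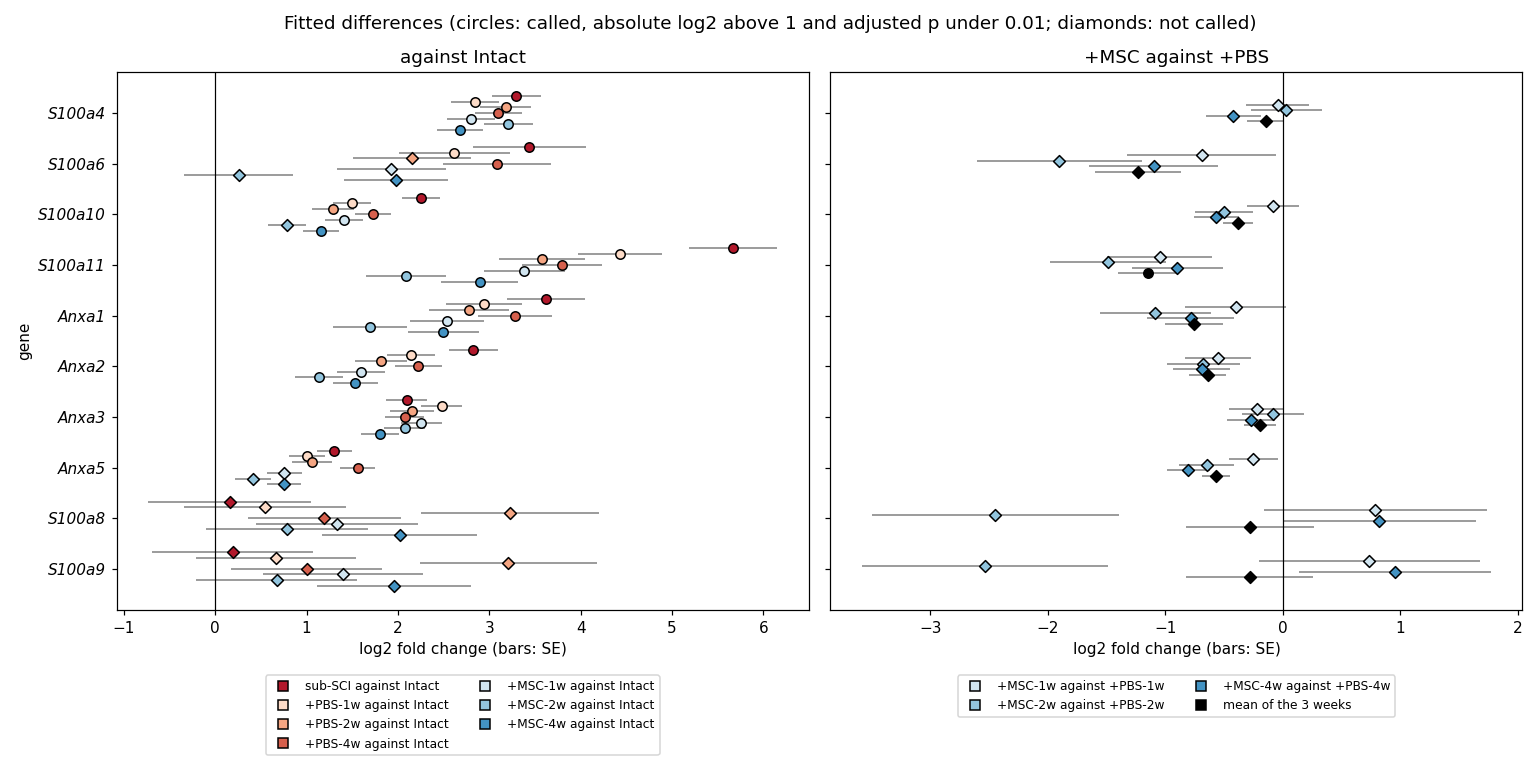
Fitted log2 fold changes with their standard errors, on the left for the 7 comparisons with Intact and on the right for +MSC against +PBS at each week and for the mean of the 3 weeks. On the left all 10 genes lie right of 0 in all 7 comparisons, S100a8 and S100a9 with the widest error bars; on the right 1 point, S100a11 in the mean of the 3 weeks, is called.

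The direct comparison of hUC-MSCs with PBS asked what the graft changed at each week. No member was called at 1 wpt (0.0111% of all genes were called lower and 0% higher), 2 wpt (0% in either direction) or 4 wpt (0% lower and 0.495% higher). At an unadjusted p under 0.05, 1 member was lower at 1 wpt (7.34% of all genes), 7 at 2 wpt (6.84%) and 5 at 4 wpt (11.3%), and 0 were higher (10.6%, 5.49% and 11.2%). DESeq2 fitted on all libraries also called 0 in each week, and DESeq2 fitted on the 2 groups alone called 1 at 1 wpt (S100a11), 4 at 2 wpt (S100a8, S100a9, S100a11 and Anxa1) and 1 at 4 wpt (S100a6). The smallest adjusted p was that of Anxa5 at 4 wpt, where the log2 fold change was -0.80 (adjusted p = 0.0179, SE 0.18). For S100a11 the log2 fold changes were -1.05 (adjusted p = 0.221, SE 0.45), -1.49 (adjusted p = 0.271, SE 0.49) and -0.90 (adjusted p = 0.17, SE 0.39) at the 3 weeks. CPM ranges of +MSC lay wholly below those of +PBS for 1 member at 1 wpt (10.5% of all genes), 8 at 2 wpt (20.7%, all but S100a4 and Anxa3) and 4 at 4 wpt (3.67%: S100a10, S100a11, Anxa2 and Anxa5). With 2 libraries in +PBS-2w, such a gap is common among all genes at 2 wpt.

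Averaged over the 3 weeks in 1 fit, S100a11 was lower with hUC-MSCs and was the single member called, at a log2 fold change of -1.15 (adjusted p = 0.00404, SE 0.26), where 0.956% of all genes were called lower and 1.61% higher. A further 5 members were lower at an adjusted p under 0.05 without passing both thresholds of a call, making 6 of 10 against 10.9% of all genes, and 0 were higher (12.3%). They were Anxa5 at -0.57 (adjusted p = 0.00307, SE 0.12), Anxa2 at -0.64 (adjusted p = 0.0079, SE 0.16), S100a6 at -1.23 (adjusted p = 0.0193, SE 0.36), Anxa1 at -0.76 (adjusted p = 0.0304, SE 0.25) and S100a10 at -0.38 (adjusted p = 0.0348, SE 0.13). The remaining 4 did not pass: Anxa3 at -0.19 (SE 0.14), S100a4 at -0.14 (SE 0.16), S100a8 at -0.28 (SE 0.54) and S100a9 at -0.28 (SE 0.54). The call of S100a11 was lost without +PBS-1w replicate 3 or without +PBS-2w replicate 1, its log2 fold change over all single libraries left out running from -1.31 to -0.93. With all replicate 1 libraries left out, which leaves 1 library in +PBS-2w, S100a11 was at -0.90, short of the fold threshold. S100a6 was at -1.59 in that fit. Fitted differences were below 0 in all 3 weeks for 7 members, S100a6, S100a10, S100a11, Anxa1, Anxa2, Anxa3 and Anxa5, which was so for 30.5% of all genes. In the same comparison all 9 fibroblast markers were lower at an unadjusted p under 0.05 (18.2% of all genes, median log2 fold change -1.21), as were 5 of the 12 microglia and macrophage markers (median -0.31). All 9 neuron markers were higher at an unadjusted p under 0.05 (18% of all genes, median log2 fold change 1.10), and 5 of them, Rbfox3, Nefl, Slc17a6, Slc12a5 and Chat, were called. The part of these cell types in the members' differences was not tested.

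Whether the difference between hUC-MSCs and PBS changed with time was tested by the differences between weeks. For 0 of the 10 members did any of the 3 differences pass an adjusted p under 0.05 in edgeR, as for 0% of all genes. At an unadjusted p under 0.05, S100a8 and S100a9 differed between 2 wpt and 1 wpt, by -3.24 (SE 1.42) and -3.27 (SE 1.41) log2 units (2.67% of all genes), and between 4 wpt and 2 wpt, by 3.27 (SE 1.33) and 3.49 (SE 1.32) (2.3% of all genes). No member did so between 4 wpt and 1 wpt (3.9% of all genes).

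From the time of transplantation to 4 wpt, S100a11 came down in both arms. In +PBS-4w against sub-SCI it was the single member that fell, at a log2 fold change of -1.87 (adjusted p = 0.00229, SE 0.41), where 3.09% of all genes were called lower and 4.28% higher. In +MSC-4w against sub-SCI, S100a11 (-2.77 (adjusted p = 3.38e-05, SE 0.42)), Anxa2 (-1.29 (adjusted p = 4.93e-04, SE 0.26)) and S100a10 (-1.09 (adjusted p = 2.73e-04, SE 0.21)) fell, where 6.1% of all genes were called lower and 10.2% higher. These comparisons share the sub-SCI libraries. Without sub-SCI replicate 3 the counts were 0 in +PBS-4w and 1 in +MSC-4w, and without Intact replicate 1 the count in +MSC-4w was 5. Of the 10 members 7 had log2 fold changes below 0 in +PBS-4w, and 3 were lower at an unadjusted p under 0.05 (16.8% of all genes). Besides S100a11 these were Anxa2 at -0.60 (adjusted p = 0.0961, SE 0.26) and S100a10 at -0.53 (adjusted p = 0.0666, SE 0.21). The log2 fold changes of Anxa5 (0.25 (SE 0.20)), Anxa3 (-0.021 (SE 0.22)) and S100a4 (-0.20 (SE 0.25)) in +PBS-4w were close to 0.

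The other S100 genes of the table followed no common course. Of 10 such genes 5 had enough counts to be tested. S100a3 was called higher than Intact in all injured groups, for example at 2.09 (adjusted p = 1.05e-05, SE 0.33) in sub-SCI, from a level of 1.23 to 2.07 CPM to 6.36 to 10.03 CPM. S100b, the S100 gene of astrocytes and oligodendrocytes, fell in sub-SCI, from 2726 to 2948 CPM in Intact to 949.6 to 1803 CPM, a log2 fold change of -1.09 (adjusted p = 8.70e-04, SE 0.25). By +PBS-4w it was at 2043 to 4216 CPM. S100a1, S100a13 and S100a16 were called in no comparison with Intact, at log2 fold changes of 0.084 (SE 0.27), 0.56 (SE 0.28) and -0.13 (SE 0.26) in sub-SCI. The median of the 5 in sub-SCI was 0.084.

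Among the other annexin genes, 6 of 8 were tested and 2 rose in sub-SCI (16.6% of all genes). They were Anxa4, with a log2 fold change of 1.77 (adjusted p = 9.40e-09, SE 0.16), and Anxa7, with 1.27 (adjusted p = 3.70e-07, SE 0.15). Anxa4 was also called in +PBS-1w, +PBS-2w and +PBS-4w, and Anxa7 in +PBS-4w, where 13.5%, 8.84% and 13.3% of all genes were called higher. Anxa8 was called in +PBS-4w, at 2.33 (adjusted p = 0.00363, SE 0.63). None of the 6 was called in any +MSC group against Intact, where the shares over all genes were also small. At 1, 2 and 4 wpt 7.87%, 5.6% and 7.25% of all genes were called higher there. None was called in +MSC against +PBS at any week (at most 0.495% of all genes in either direction). The same held in the mean of the 3 weeks (1.61% higher and 0.956% lower), where 4 of 6 were lower at an unadjusted p under 0.05 (18.2% of all genes). Anxa4 was among those, at -0.44 (adjusted p = 0.00446, SE 0.10).

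Receptors, partners and targets of the family were mostly taken from the plasminogen system and the calprotectin and annexin A1 receptors. Of 18 tested, 8 rose and 3 fell in sub-SCI (16.6% and 17.5% of all genes), with a median log2 fold change of 0.60. Of the plasminogen system, Plau and Plaur were among the highest. Plau, the urokinase gene, went from 0.691 to 1.94 CPM in Intact to 69.5 to 108 CPM, a log2 fold change of 6.15 (adjusted p = 6.47e-10, SE 0.47). Its receptor Plaur had 5.41 (adjusted p = 2.69e-09, SE 0.46) and tissue plasminogen activator Plat a smaller rise of 1.30 (adjusted p = 4.76e-07, SE 0.16). Plg, the plasminogen gene, was not called, at 0.345 to 0.769 CPM in Intact and 0.0565 to 0.650 CPM in sub-SCI. Tlr4, the calprotectin receptor, rose by a log2 fold change of 2.20 (adjusted p = 4.80e-06, SE 0.32), from 2.97 to 6.21 CPM to 19.97 to 23.1 CPM. Myh9, the myosin heavy chain bound by S100A4, had 3.28 (adjusted p = 2.90e-04, SE 0.69). Its counts were low, at 0 to 0.302 CPM in Intact and 1.07 to 2.57 CPM in sub-SCI. Ahnak, a scaffold of the S100A10 and annexin A2 complex, had 1.49 (adjusted p = 0.00732, SE 0.45). Pla2g4a and Plgrkt were the others that rose.

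The 3 that fell in sub-SCI, a share near that of all genes called lower, were Fpr1, Kcnk3 and Trpv6. Fpr1, a formyl peptide receptor bound by annexin A1, was at 1.01 to 1.598 CPM in Intact and 0.141 to 0.6499 CPM in sub-SCI, a log2 fold change of -1.60 (adjusted p = 0.00392, SE 0.45). Kcnk3 and Trpv6, ion channels that S100A10 brings to the membrane, had -2.41 (adjusted p = 2.41e-06, SE 0.33) and -1.90 (adjusted p = 3.79e-08, SE 0.19). Fpr2 was too low to be tested, at no more than 0.495 CPM in any library. In the mean of the 3 weeks of +MSC against +PBS, 1 of the 18 was called, Trpv5, which was higher. Of all genes 1.61% were called higher there and 0.956% lower. A single call among 18 genes is no result about the list. The counts of Trpv5 were low throughout, at 0.0469 to 1.07 CPM over the libraries. Of the 18, 11 were lower at an unadjusted p under 0.05 (18.2% of all genes). The 18 had a median log2 fold change of -0.23, against -0.017 over all genes tested. Plaur was at -0.73 (adjusted p = 0.0302, SE 0.24) and Plau at -0.59 (adjusted p = 0.0725, SE 0.23).

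Genes with the most similar profile were sought over the 8 group means of log2 CPM, each centred on its own mean, by the root mean square difference, which is given in parentheses in log2 units. S100a8 was nearest to Np4 (0.0977) and Defa5 (0.0992), and S100a9 to Defa5 (0.0861) and Np4 (0.104). Both are defensin genes. Np4 was at 68.9 to 72.3 CPM in +PBS-2w and 6.89 to 10.4 CPM in sub-SCI. Anxa1 was nearest to Vim (0.121), the intermediate filament gene of reactive astrocytes and mesenchymal cells, and Fxyd2 (0.1797). S100a6 was nearest to Twist2 (0.249), a transcription factor gene of mesenchymal cells, and AABR07005821.1 (0.281). S100a11 had Htr2b (0.253) and Ifitm2 (0.266), both at larger distances than the nearest genes of most other members. S100a10 was nearest to Dram1 (0.0949) and Rdh10 (0.0984), Anxa2 to Tmem35b (0.0965) and Cdkn2c (0.103), and Anxa5 to Bcat2 (0.0906) and Cav1 (0.0934). S100a4 was nearest to Tnfsf13b (0.188) and Ankrd63 (0.207), and Anxa3 to Igtp (0.08003) and Dapp1 (0.0967). With 8 group means a close match among 17990 genes is easily found, so these are descriptions.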

How the data were processed

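Per the labels and the study's methods, the authors prepared poly(A) libraries of total RNA with a NEBNext Ultra kit, trimmed them with Trim Galore 0.5.0, removed reads that HISAT2 2.1.0 mapped to human GRCh38, mapped what was left to rat Rnor6, filtered for proper pairs (SAMtools 1.9) and counted with featureCounts 1.6.4. The values the authors deposited are raw read counts per gene. The annotation release and strand setting are not given in the sources used here, so antisense reads cannot be told apart. Human removal can also take reads of conserved rat sequence, in all libraries alike. The labels were followed for 2 libraries in +PBS-2w and 3 in +MSC-2w, where the methods text gives other numbers.

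The 26 deposited count files of single samples equalled the joint table. Genes were filtered with filterByExpr (17990 of 32883 kept; 6513 had no count), normalised by TMM and fitted as 8 groups in 1 edgeR 4.0.16 quasi-likelihood model (R 4.3.3), with Benjamini-Hochberg adjustment over all genes tested. The thresholds for a call (1 in log2, 0.01 in adjusted p) are the study's. CPM used plain library totals, and FPKM divided CPM by the deposited gene length. The fit was tested on simulated data. Alternatives were median-of-ratios size factors, no filter, at least 10 counts in every library (14181 genes), DESeq2 1.42.0, fits on 2 groups, a replicate block, a replicate 1 term, leaving out replicate 1 or any single library and, chosen after seeing the data, length-adjusted offsets. The members, the lists of other S100 genes, other annexins, receptors and cell type markers, and the rule for nearest profiles were chosen with earlier results of these data known. Named genes are the members, genes of these lists and the 2 nearest profiles of each member.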

Additional observations from a re-analysis of the deposited data

Results flagged for a closer look

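Among the 10 members in the 3 groups of 4 libraries, 30 tests for a library standing apart (Dixon's test, of which chance marks about 1 in 20) picked out 2 values. S100a6 in +MSC-4w had replicates at 70.9, 126, 77.5 and 77.2 CPM, the gap above the others taking 0.8798 of the whole range. Anxa1 in +PBS-4w had replicates at 124, 186, 189 and 183 CPM, the gap below the others taking 0.912 of the range. In +MSC-4w replicate 2 the fibroblast markers summed to 3198 CPM against 1255 to 2006 CPM in the other replicates, and in +PBS-4w replicate 1 to 1272 CPM against 4446 to 5628 CPM. The part of these cells in the values was not tested.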

How the results depend on the processing

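The counts of members called against Intact stayed within 1.5 times of those reported under every alternative except that +PBS-2w gave 4 with the replicate 1 libraries left out, and +MSC-2w gave 3 with edgeR on 2 groups and 3 to 5 with single libraries left out (3 without +MSC-2w replicate 2 or 3). For +MSC against +PBS, DESeq2 on 2 groups gave 1, 4 and 1 at 1, 2 and 4 wpt in place of 0, and for the mean of the 3 weeks DESeq2 on all libraries gave 2 in place of 1 and single libraries left out 0 to 2 (2 without Intact replicate 1 or +PBS-4w replicate 1). +PBS-4w against sub-SCI gave 0 to 1 with single libraries left out. +MSC-4w against sub-SCI gave 1 to 5 in that way, 7 with DESeq2 on 2 groups and 5 without the replicate 1 libraries, in place of 3. The cause of these changes was not tested. Of 1180 values of single genes under the other settings, 1129 kept their direction and side of the threshold, 28 passed it newly, 11 lost it and 12 changed sign. The sign changed without the replicate 1 libraries for S100a8 in sub-SCI against Intact (-0.063), S100a8 in +PBS-4w against Intact (-0.54), S100a9 in +PBS-4w against Intact (-0.64), S100a6 in +MSC-2w against Intact (-0.82), S100a9 in +MSC-2w against Intact (-0.092), Anxa3 in +MSC-1w against +PBS-1w (0.027), Anxa3 in +MSC-2w against +PBS-2w (0.23), S100a4 in +MSC against +PBS, mean of the 3 weeks (0.17), S100a8 in +MSC against +PBS, mean of the 3 weeks (0.11), Anxa3 in +MSC against +PBS, mean of the 3 weeks (0.084). It changed with length-adjusted offsets for S100a8 (-0.21) and S100a9 (-0.15) in sub-SCI against Intact. With single libraries left out, signs differed within these ranges of log2 fold change: S100a8 in sub-SCI against Intact -0.13 to 1.32, S100a9 in sub-SCI against Intact -0.11 to 1.34, S100a9 in +PBS-1w against Intact -0.16 to 1.81, S100a8 in +PBS-4w against Intact -0.15 to 2.36, S100a9 in +PBS-4w against Intact -0.24 to 2.15, S100a6 in +MSC-2w against Intact -0.45 to 0.54, S100a4 in +MSC-1w against +PBS-1w -0.17 to 0.070, S100a10 in +MSC-1w against +PBS-1w -0.27 to 0.18, Anxa1 in +MSC-1w against +PBS-1w -0.58 to 0.028, Anxa3 in +MSC-1w against +PBS-1w -0.48 to 0.0048, Anxa5 in +MSC-1w against +PBS-1w -0.43 to 0.023, S100a4 in +MSC-2w against +PBS-2w -0.32 to 0.49, Anxa3 in +MSC-2w against +PBS-2w -0.26 to 0.12, S100a8 in +MSC against +PBS, mean of the 3 weeks -0.44 to 0.16, S100a9 in +MSC against +PBS, mean of the 3 weeks -0.44 to 0.12. The replicate numbers of +MSC and +PBS did not mark pairs, with correlations of their deviations from -0.0781 to 0.233, and with the replicate block 1 member was called in the mean of the 3 weeks, 0 at each single week, and no count of calls moved by over 1.5 times. +PBS-2w rests on 2 libraries, and S100a8 and S100a9 had standard errors of 0.82 to 1.05 in the weekly differences. Even their differences of -2.45 and -2.54 at 2 wpt were not called in edgeR (adjusted p = 0.365 and 0.348).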
